A study of Mus musculus with 8 samples.

Results

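The genes described here encode heat shock proteins and their J-domain partners. They were taken as all genes whose symbol in the array annotation begins with Hspa, Hspb, Hsp90, Hsph1, Hspd1, Hspe1, Dnaja, Dnajb or Dnajc, which gave 72 of the 18193 genes measured. The 72 were divided into 12 heat-inducible genes, 7 genes inducible by stress of the endoplasmic reticulum (ER), and 53 constitutive or other genes. The rule follows the letters of the symbol, so it also takes in Hspb11, whose product is part of the intraflagellar transport machinery, and the genes Hspbap1 and Hspbp1 for proteins that bind heat shock proteins. Only probe sets annotated with a single gene symbol were used. The constitutive HSP90 gene Hsp90ab1 had no such probe set, so it is not among the 72.

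Expression was measured on 8 Affymetrix arrays of RNA from cells sorted out of mouse skin, in 4 groups of 2 arrays labelled as biological replicates. The bulge and the hair germ were each sorted from wild-type (WT) mice and from mice labelled Runx1 iTG. The Runx1 iTG mice carried a Tet-on transgene for the transcription factor Runx1. The promoter that drives it was not given in the sources used here. WT and transgenic mice alike had eaten doxycycline food (1 g in each kg) during 1 day, and the treatment label names repression of an H2BGFP reporter as its purpose. All samples were taken at postnatal day 20 except replicate 2 of both Runx1 iTG groups, taken on day 21. Skin was in telogen, when follicles rest. Both populations were sorted as K15-GFP positive and alpha6-integrin positive. The bulge, the stem cell niche of the follicle, was CD34 positive, and the hair germ, the small cell group between the bulge and the dermal papilla, was CD34 negative. Whether bulge and hair germ samples of the same replicate number came from the same animals, and whether animals were pooled, was not given in the sources used here. In bulk samples, fewer cells of a type and less RNA per cell cannot be told apart.

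Chaperones hold unfolded or newly made proteins in a state that can still fold. The HSP70 proteins (Hspa genes) bind exposed hydrophobic stretches in a cycle driven by ATP, J-domain proteins (Dnaja, Dnajb and Dnajc genes) deliver clients and start ATP hydrolysis, and nucleotide exchange factors such as the product of Hsph1 release the client. Small heat shock proteins (Hspb genes) hold clients without ATP, HSP90 finishes the folding of kinases and receptors, and the ring of HSP60 (Hspd1) with its lid HSP10 (Hspe1) folds proteins inside mitochondria. Heat shock factor HSF1 raises the heat-inducible members through heat shock elements in their promoters, and the unfolded protein response raises the ER members through ER stress elements.

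Promoter letters are shown first for some members of the comparisons below that held a match to such an element. The classes were set from fixed gene lists, not from these elements. Windows from 250 bases before to 50 bases after each annotated start were taken from RefSeq on build GRCm38.p6, and 59 of the 72 members had at least 1. The heat shock element was searched as GAANNTTC, which reads the same on both strands. In the lines below capitals mark heat shock elements, and in the line for Hspa5 they mark an ER stress element. For Hspe1 the capitals also cover matches to a longer form of the heat shock element, described after the lines.

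Hspe1, chr1:55088019-55088116, plus strand: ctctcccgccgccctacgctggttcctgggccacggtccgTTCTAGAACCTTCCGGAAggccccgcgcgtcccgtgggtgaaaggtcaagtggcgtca
Hspb1, chr5:135887762-135887869, plus strand: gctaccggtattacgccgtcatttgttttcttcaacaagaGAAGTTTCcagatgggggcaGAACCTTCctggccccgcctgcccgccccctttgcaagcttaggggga
Hspa1a, chr17:34972213-34972300, minus strand: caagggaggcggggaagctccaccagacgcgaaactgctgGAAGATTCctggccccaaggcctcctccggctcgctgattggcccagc
Hspa5, chr2:34771985-34772083, plus strand: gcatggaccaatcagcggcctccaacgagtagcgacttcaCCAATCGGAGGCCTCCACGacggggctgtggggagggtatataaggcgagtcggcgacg

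GAANNTTC was found in the windows of 8 of the 11 heat-inducible genes that had one (Dnaja1, Hspa1a, Hspa1b, Hspb1, Hspb8, Hspd1, Hspe1 and Hsph1), in 0 of 6 ER members and in 6 of 42 constitutive or other members. Counted in the same way, 9.04% of all 27025 genes with a window held it (7.86% of all 32851 windows). The longer form, GAANNTTC followed directly by NNGAA, was searched on both strands and overlaps the shorter one. It was found in Hspd1, Hspe1, Hsph1 and Dnajb6, and in 0.662% of all genes with a window. The ER stress element (CCAAT, then 9 bases of any kind, then CCACG) was searched on both strands. It was found in Dnajc3, Hsp90b1 and Hspa5 among the members and in 0.137% of all genes with a window.

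Hspd1 and Hspe1 lie head to head on chromosome 1. RefSeq gives Hspd1 2 starts on the opposite strand. The window of the start that lies 216 bases from that of Hspe1 has 285 bases in common with the Hspe1 window and holds the stretch printed for Hspe1. The window of the other start, which lies nearer, has 4 bases in common with the Hspe1 window and does not hold that stretch. The corresponding 88 bases of Hspa1b (chr17:34959295-34959382, minus strand) differed from those printed for Hspa1a at 0 positions, and the full windows differed at 4 of 300 bases. The transcripts of this gene pair are near-identical, and the array may not separate them.

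**Figure D1:**
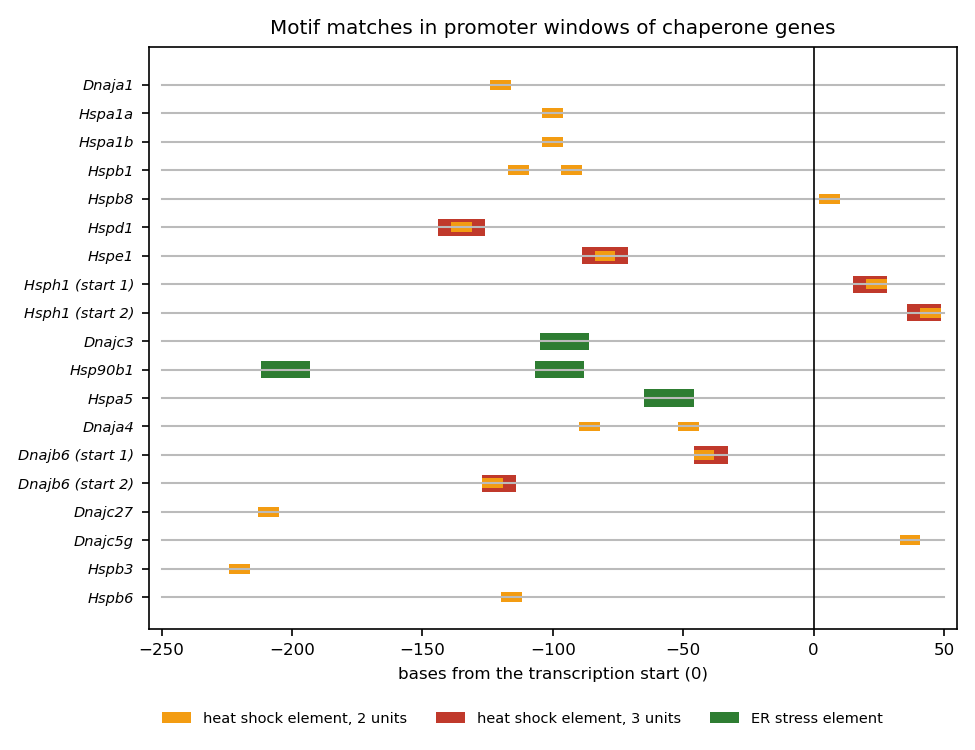
Positions of motif matches in the promoter windows of the members that had one, in bases from the annotated start at 0; each grey line is a window of 300 bases. Orange marks the heat shock element GAANNTTC, red its longer form, which overlaps it, and green the ER stress element; Hspd1 and Hspe1 carry the longer form, and Hspb8 and Hsph1 hold their matches after the start.

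Before the members, the labels were checked against defining genes. On the deposited scale brought to a common 75th percentile, the probe set that stands for Runx1 read 658 and 904 in WT bulge, 495 and 489 in WT hair germ, 19461 and 13699 in Runx1 iTG bulge, and 12107 and 12882 in Runx1 iTG hair germ. Of the 6 Runx1 probe sets, 2 were higher by more than 1 on the log2 scale in both populations with limma adjusted p from 0.000253 to 0.0664. The other 4 lay between −0.40 and 0.21 in bulge and between −2.77 and −1.43 in hair germ, and did not pass by limma in either. Cd34 lay between 4902 and 11208 in the bulge arrays and between 2.42 and 53.2 in the hair germ arrays. Of 9 bulge markers, 8 were lower in hair germ samples by limma over both genotypes. The hair germ markers went mostly against their label: of 7, Ctsc was higher in the samples labelled hair germ, Lgr5, Msx2, Gli1, Cdh3 and Alcam were lower, and Shh did not pass. The gate set the hair germ apart from the bulge by the lack of CD34 alone, so other K15-GFP positive, alpha6-integrin positive cells without CD34 would also enter it. Every hair germ value below is a value of that gate. Markers of other cells also moved between the populations, and they are given beside the members below. In each group, replicate 1 had high Y-linked signal and Xist of 30.2 to 72.5, and replicate 2 had Xist of 9973 to 11103, so the spread within a group includes sex.

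Of the 72 members, 61 lay above background in all 4 groups, 9 in some groups and 2 (Dnajc5g and Hspb7) in none. Background was set at 31.1, the 95th percentile of bacterial control probe sets without a target in mouse RNA. The 9 were Dnajb3, Dnajb13, Dnajc5b, Dnajc6, Dnajc12, Dnajc22, Dnajc27, Hspb2 and Hspb9. On every array, 28 members read above 1000.

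The first question was whether the transgene moved the chaperones. The probe sets of the members did not show a change that passed the test in either population. Runx1 iTG minus WT gave 0 of 72 members at a Benjamini-Hochberg adjusted p under 0.05 by limma in bulge, against 0.022% of all genes. In hair germ the count was 0 against 0.0275%, and in the average over both populations it was 0 against 0.0495%. So few genes passed anywhere that a count of 0 members does not set them apart. At an unadjusted p under 0.05 there were 2 members in bulge, 4 in hair germ and 3 in the average, where all genes gave 1084 (5.96%), 1233 (6.78%) and 1456 (8%). The median log2 difference of the 72 was −0.05 in bulge and 0.06 in hair germ, and that of all genes was 0.02 and 0.03.

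Among the heat-inducible members, Hspa1a and Dnajb1 are the customary readouts of HSF1 activity. Hspa1a, an inducible HSP70, read 1874 and 1151 in WT bulge, 2559 and 1406 in Runx1 iTG bulge, 2462 and 1135 in WT hair germ, and 3470.1 and 2529 in Runx1 iTG hair germ. The transgenic mean was higher in each population. In bulge the arrays of the genotypes overlapped, while in hair germ both transgenic arrays lay above both WT arrays. The averaged difference was 0.60 on the log2 scale (SE 0.30, 95% interval −0.07 to 1.26), with an adjusted p of 0.677 by limma. It was 0.32 without WT hair germ replicate 2, 0.38 without Runx1 iTG bulge replicate 1 and 0.93 with day 20 arrays only. The day 20 set keeps replicate 1 alone in both Runx1 iTG groups but both replicates in WT. Hspa1a read higher in replicate 1 than in replicate 2 in every group, so 0.93 does not separate age from replicate.

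Dnajb1, the J-domain partner of inducible HSP70, was bright in every sample. It read 11345 and 8739.8 in WT bulge, 9549 and 8462 in Runx1 iTG bulge, 8548 and 6569 in WT hair germ, and 8466 and 7939.6 in Runx1 iTG hair germ. The genotypes overlapped in both populations, and the averaged difference was −0.01 (95% interval −0.37 to 0.35, limma adjusted p = 0.996).

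Hsph1, the exchange factor HSP110, scattered widely between transgenic replicates. Its arrays read 3437 and 3430.1 in WT bulge, 4954 and 1825 in Runx1 iTG bulge, 3585 and 5027 in WT hair germ, and 8073 and 3584 in Runx1 iTG hair germ. The transgenic pairs spanned the WT pairs, and the averaged difference was 0.08 (95% interval −0.67 to 0.82). For the other heat-inducible members, on the probe set that stands for each gene, the averaged transgene difference lay between −0.28 (Hspd1) and 0.26 (Hspa1b). For Dnaja1 that probe set was at −0.11, whereas its others were at 0.40 and 0.28. Of the 12 heat-inducible members, 12 lay within 0.5 log2 units of 0 in bulge and 11 in hair germ, the exception being Hspa1a at 0.83. When replicate 1 of WT hair germ was left out that value was 1.38, and when replicate 2 was left out it was 0.27.

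Hspa8, the constitutive HSP70, was bright and steady, with values from 16104 to 20951 over the 8 arrays. Its averaged transgene difference was −0.000075 (95% interval −0.34 to 0.34). For Hspa4, an HSP110 relative, the difference was −0.08, and for Dnaja2, a constitutive J-domain partner of HSP70, −0.03. Dnajb6, which holds aggregation-prone proteins, differed by 0.31 on the probe set that stands for it. Its other probe sets lay at 0.08, −0.38 and −0.35. On the probe set at 0.31, the 2 Runx1 iTG bulge arrays read 6051 and 3051, so the higher mean there came from replicate 1.

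**Figure D2:**
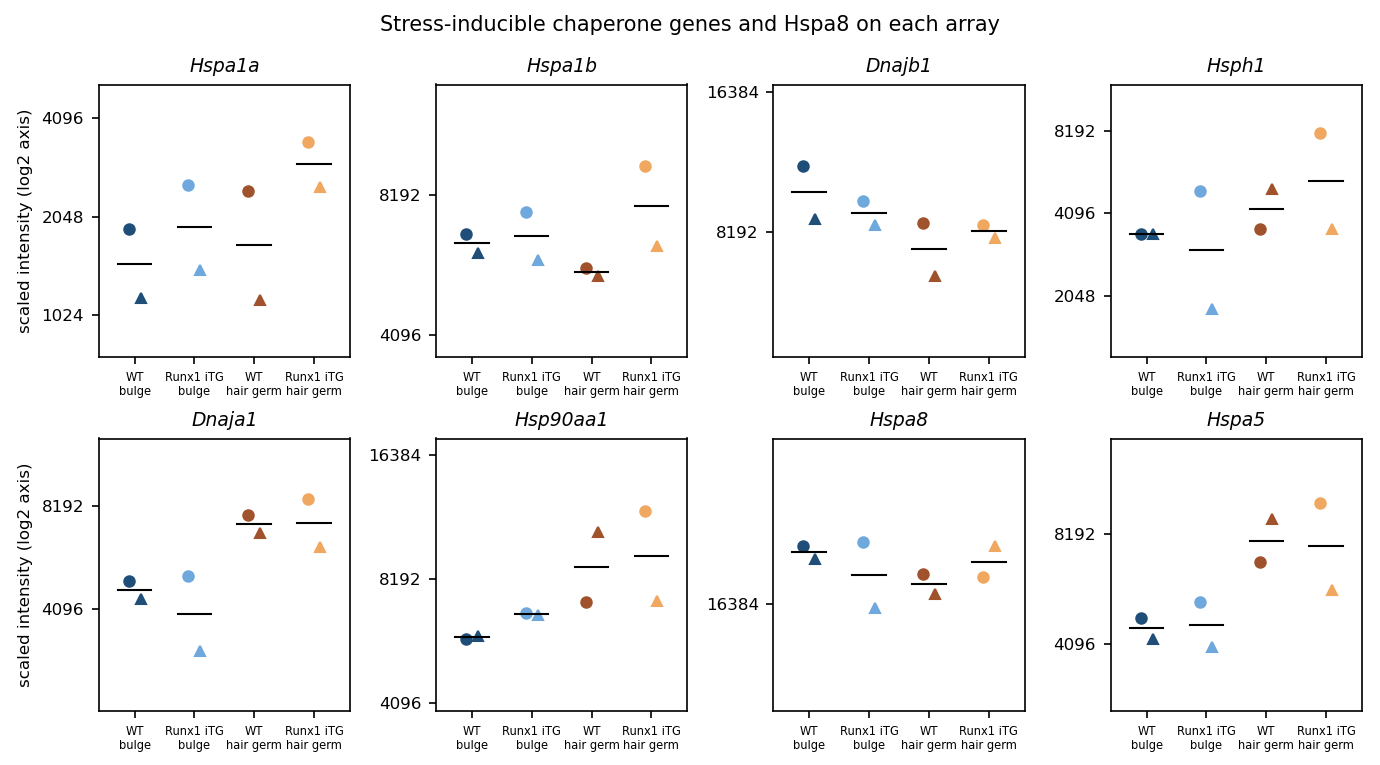
Scaled intensity on each array (log2 axis) of 6 heat-inducible members, the constitutive HSP70 gene Hspa8 and the ER member Hspa5. Circles are replicate 1, triangles replicate 2 and black lines the group means (n = 2); Hspa1a replicate 1 lies above replicate 2 in all 4 groups, and Hspa8 stays between 16104 and 20951.

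The ER members showed no transgene call either. Hspa5 (BiP, the HSP70 of the ER lumen) differed by −0.01 in the average (95% interval −0.47 to 0.45), and Hsp90b1 (GRP94, the HSP90 of the ER) by −0.19. Dnajb9, a J-domain partner of BiP, was highest of the 7 at 0.49 (95% interval −0.10 to 1.09, limma adjusted p = 0.710). Its arrays read 721 and 666 in WT bulge, 598 and 1431 in Runx1 iTG bulge, 692 and 835 in WT hair germ, and 1042 and 1222 in Runx1 iTG hair germ. Both transgenic hair germ arrays lay above WT, whereas the transgenic bulge arrays lay on either side of WT. Hspa13, an HSP70 of microsomes, was higher in transgenic hair germ, at 655 and 538 against 305 and 394 (log2 difference 0.78, unadjusted p = 0.0314, limma adjusted p = 0.671).

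Of the constitutive or other members, those nearest to a transgene call were Hspa12a and Hspb11. Hspa12a, a distant HSP70 relative, read 293 and 267 in WT bulge, 196 and 147 in Runx1 iTG bulge, 135 and 181 in WT hair germ, and 69.8 and 52.1 in Runx1 iTG hair germ. The transgenic arrays lay below WT in each population (averaged log2 difference −1.05, SE 0.33, limma adjusted p = 0.438). Hspb11 read 1097 and 678 in WT bulge, 1627 and 1298 in Runx1 iTG bulge, 938 and 761 in WT hair germ, and 1077 and 1509.8 in Runx1 iTG hair germ. Here the transgenic arrays lay above WT in each population (0.67, SE 0.22, limma adjusted p = 0.446). Dnajc5, a J-domain protein of secretory vesicles, was at −0.44 and Dnajc4 at 0.39 (limma adjusted p = 0.596 and 0.629).

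Whether the transgene difference itself changed with the population was tested as an interaction, which 0 members passed (0% of all genes, limma, with 3 members and 839 genes, or 4.61%, at an unadjusted p under 0.05). The member with the smallest interaction p was Hspa12b, an HSP70 relative known from endothelium. It read 257 and 227 in WT bulge, 71.0 and 191 in Runx1 iTG bulge, 28.7 and 45.1 in WT hair germ, and 143 and 125 in Runx1 iTG hair germ. The transgenic arrays were lower than WT in bulge and higher than WT in hair germ. The interaction was 2.94 on the log2 scale (SE 0.86, unadjusted p = 0.00685, adjusted p = 1.00 by limma). Summed signal of 5 endothelial markers was 166 and 154 in WT bulge and 91.6 and 189 in Runx1 iTG bulge. In hair germ it was 61.8 and 46.7 in WT and 94.7 and 126 in Runx1 iTG. Of the 5 markers, 5 lay below background in WT bulge, 5 in WT hair germ, 3 in Runx1 iTG bulge and 4 in Runx1 iTG hair germ. Their part in the result was not tested.

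Genes around the chaperones were read from fixed lists. Of 7 measured HSF factors and regulators, 26 co-chaperones, 21 other heat shock proteins and 25 other genes of the unfolded protein response, 0 passed by limma in any of the Runx1 iTG minus WT comparisons. In the average, 2, 1, 1 and 4 of them had an unadjusted p under 0.05 by limma, against 8% of all genes. Hsf1 itself had no probe set annotated with its symbol alone and was not analysed. Of 19 immediate early genes, which rise within minutes of stimulation or tissue handling, 0 passed by limma. In the average 9 of the 19 had an unadjusted p under 0.05, against 8% of all genes, and their median difference was 0.66. The part of these genes in the values of Hspa1a was not tested.

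The second question was how the populations differ. The chaperone differences that passed the test lay between hair germ and bulge, and they ran in opposite directions for different members. In the average over genotypes, Hspd1, Hspe1, Hspa9, Dnaja3 and Dnajc15, whose products work in mitochondria, were higher in hair germ samples, and the small heat shock protein genes Hspb1 and Hspb8 and the HSP70 gene Hspa2 were lower. Averaged over both genotypes, 13 of 72 members passed by limma (18.1%), 9 higher and 4 lower, against 18.3% of all genes (9.17% higher and 9.11% lower). In WT alone 9 passed (12.5%), 5 higher and 4 lower, against 6.93% of all genes (3.14% higher and 3.79% lower). In Runx1 iTG alone 7 passed (9.72%), 4 higher and 3 lower, against 9.76% (4.5% higher and 5.26% lower). The averaged and transgenic shares lie near those of all genes, so those 2 counts say nothing particular of chaperones. The WT share was higher than that of all genes (12.5% against 6.93%), and this excess was not tested. With all 4 hair germ arrays above all 4 bulge arrays there were 12 members (10.8% of all genes), and with all 4 below there were 5 (11.6% of all genes). The number for WT fell to 4, 1, 5 and 0 when WT bulge replicate 1, WT bulge replicate 2, WT hair germ replicate 1 or WT hair germ replicate 2 was left out. Without the intensity trend in the variance model 0 passed in WT. The averaged number fell to 7 without WT hair germ replicate 2 and to 8 without Runx1 iTG bulge replicate 2. The comparisons within WT, within Runx1 iTG and averaged share arrays, so they are not independent of each other.

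**Figure D3:**
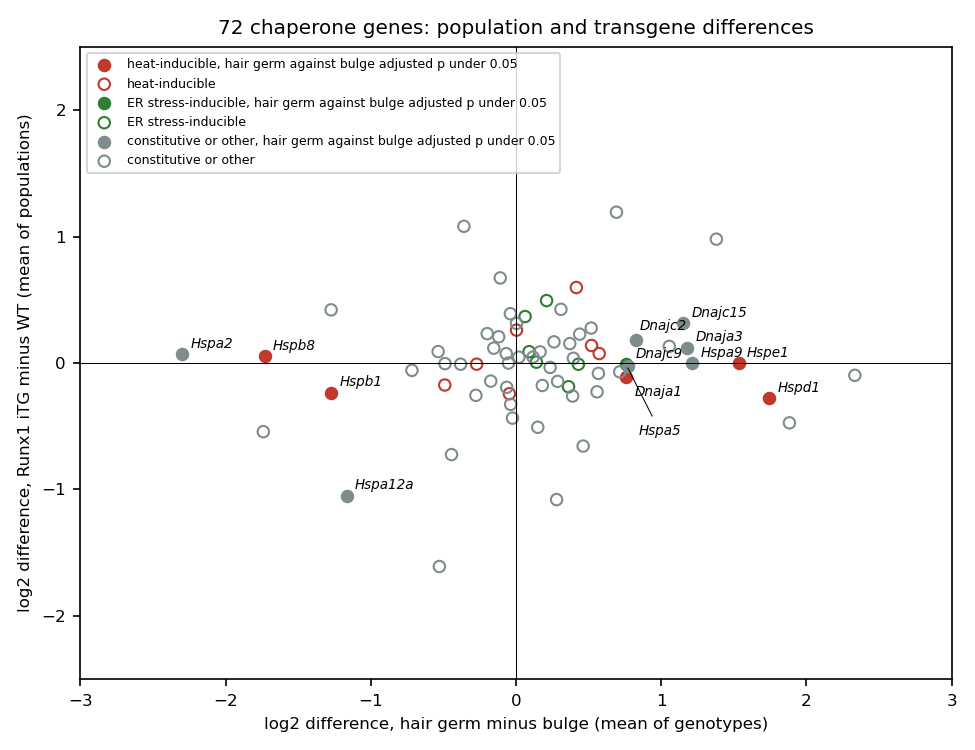
Log2 difference between hair germ and bulge (x axis, mean of genotypes) against that between Runx1 iTG and WT (y axis, mean of populations) for the 72 members; both differences use the same 8 arrays. Filled points passed an adjusted p under 0.05 for hair germ against bulge, 9 to the right and 4 to the left, and 0 members passed for the transgene.

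Hspd1 (HSP60) had the largest averaged difference of the heat-inducible members that were higher. It read 4418 and 3908 in WT bulge and 11366 and 13984 in WT hair germ, and 3841 and 2525 in Runx1 iTG bulge and 12148 and 10839 in Runx1 iTG hair germ. All 4 hair germ arrays lay above all 4 bulge arrays. The averaged difference was 1.74 (SE 0.17, 3.34-fold, limma adjusted p = 0.000131).

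Its partner Hspe1 (HSP10) ran the same way. It read 5014 and 3274 in WT bulge, 11627 and 15075 in WT hair germ, 5766 and 3632 in Runx1 iTG bulge, and 12596 and 10951 in Runx1 iTG hair germ. The populations did not overlap, and Hspe1 rose 2.90-fold in hair germ samples (1.53, SE 0.21, limma adjusted p = 0.000755). Hspa9 (mortalin, the HSP70 of mitochondria) read 3468 and 3350.3 in WT bulge, 6306 and 7552 in WT hair germ, 3102 and 2854 in Runx1 iTG bulge, and 8441 and 7379 in Runx1 iTG hair germ. Again every hair germ array lay above every bulge array (1.21, SE 0.14, 2.32-fold, limma adjusted p = 0.000363).

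The J-domain partner of mortalin, Dnaja3, read 811 and 661 in WT bulge, 1315 and 1646 in WT hair germ, 695 and 719 in Runx1 iTG bulge, and 1753 and 1852 in Runx1 iTG hair germ. The populations did not overlap (1.18, SE 0.17, 2.26-fold, limma adjusted p = 0.0013). Dnajc15, a J-domain protein of the mitochondrial import motor, read 1023 and 471 in WT bulge, 1409.7 and 2014 in WT hair germ, 1044 and 857 in Runx1 iTG bulge, and 1879 and 1960.2 in Runx1 iTG hair germ. It was higher by 1.15 (SE 0.25, limma adjusted p = 0.0113), a call lost without WT hair germ replicate 2 or Runx1 iTG bulge replicate 2.

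Several members have more than 1 probe set, which allows a check of the same transcript. Both probe sets of Hspe1 passed in the same direction, as did 3 of 5 for Hspa9 and 2 of 3 for Dnaja3. The remaining Dnaja3 probe set lay at −0.61 and the lowest of Hspa9 at −0.20. For Hspd1 and Dnajc15 there was 1 probe set each. A group of 9 mitochondrial members was put together after the values were seen (Hspa9, Hspd1, Hspe1, Dnaja3, Dnajc4, Dnajc11, Dnajc15, Dnajc28 and Dnajc30). In the average 5 of the 9 passed higher and 0 lower, against 9.17% and 9.11% of all genes. The choice of members does not leave this count as independent evidence. Of the 4 that did not pass, Dnajc11 was at 0.71, Dnajc4 at −0.04, Dnajc30 at −0.20 and Dnajc28 at −0.28.

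**Figure D4:**
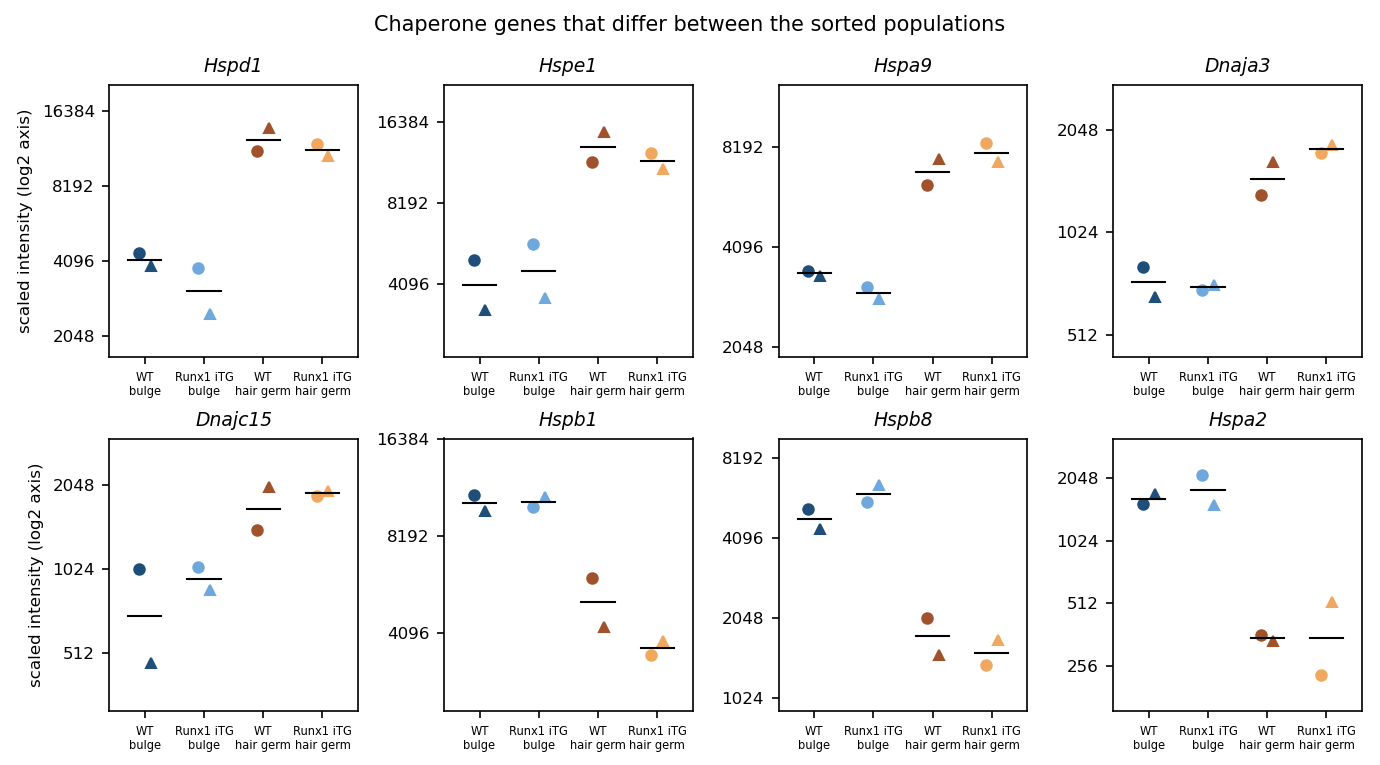
Scaled intensity on each array (log2 axis) of 8 members that passed for hair germ against bulge averaged over genotypes. Circles are replicate 1, triangles replicate 2 and black lines the group means (n = 2); in each panel every hair germ array lies on the same side of every bulge array, above for Hspd1, Hspe1, Hspa9, Dnaja3 and Dnajc15 and below for Hspb1, Hspb8 and Hspa2.

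Other genes of organelle and cytosolic folding were read from the list of heat shock proteins outside the symbol rule. Of 21 measured, 5 passed higher and 2 lower in the average, against 9.17% and 9.11% of all genes. Grpel1, the nucleotide exchange factor of mortalin, was higher by 1.25 (limma adjusted p = 0.000835) and Trap1, the mitochondrial HSP90, by 0.89 (0.00984). Cct5, Tcp1 and Cct8, subunits of the cytosolic chaperonin, were higher by 0.91, 0.90 and 0.71. The collagen chaperone gene Serpinh1 was lower, at −1.54, and so was the small heat shock protein gene Cryab, at −1.38.

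Of the 4 members that were lower in hair germ samples in the average, 2 were small heat shock protein genes. Hspb8, which works with Bag3 in clearing misfolded proteins, read 5282 and 4454 in WT bulge, 2047 and 1490.0 in WT hair germ, 5605 and 6493 in Runx1 iTG bulge, and 1365 and 1689 in Runx1 iTG hair germ. Every hair germ array lay below every bulge array (−1.73, SE 0.17, 3.32-fold lower, limma adjusted p = 0.000121), and all 3 of its probe sets passed. Hspb1 (HSP27), a small heat shock protein abundant in keratinocytes, read 10996 and 9833 in WT bulge, 6083 and 4263 in WT hair germ, 10102 and 10829.6 in Runx1 iTG bulge, and 3491 and 3847 in Runx1 iTG hair germ. The populations did not overlap (−1.27, SE 0.16, 2.41-fold lower, limma adjusted p = 0.000487), and both probe sets passed.

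Hspa2, an HSP70 best known from spermatogenesis, had the widest difference of the members that passed in the average over genotypes. It read 1529 and 1721 in WT bulge, 359 and 338 in WT hair germ, 2119 and 1528 in Runx1 iTG bulge, and 231 and 521 in Runx1 iTG hair germ. The groups lay far apart in both genotypes (−2.30, SE 0.27, 4.92-fold lower, limma adjusted p = 0.000316). Bag3, the partner of Hspb8 and a co-chaperone, was lower as well (−1.13, limma adjusted p = 0.00501). Of the 26 co-chaperones measured, Bag3 and Sgtb (−1.29) passed lower and St13, which binds HSP70, higher (1.07). Over all genes 9.11% passed lower and 9.17% higher.

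Of the 8 Hspb genes, 2 passed lower and 0 higher (25%, against 18.3% of all genes), and the other 6 were dim or overlapped between populations. Hspb6 read 566 and 538 in WT bulge, 321 and 588 in WT hair germ, 243 and 910.0 in Runx1 iTG bulge, and 966 and 872 in Runx1 iTG hair germ, with wide scatter within 2 of the groups. Hspb2 was at 114 to 153 in the bulge arrays and 7.42 to 99.7 in the hair germ arrays. Its Runx1 iTG hair germ mean (27.2) lay below background, so no exact difference is given (limma adjusted p = 0.137). It passed without Runx1 iTG hair germ replicate 2 (limma adjusted p = 0.00783) and also with day 20 arrays only.

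Of the customary heat-inducible genes, Hspa1a, Hspa1b, Dnajb1, Hsph1 and Hsp90aa1 did not pass, and Dnaja1 passed higher. In hair germ against bulge, Hspa1a differed by 0.42 (95% interval −0.25 to 1.08), Hspa1b by 0.00 (−0.38 to 0.38) and Dnajb1 by −0.27 (−0.63 to 0.08). Hsph1 differed by 0.57 (−0.17 to 1.32) and Hsp90aa1, the inducible HSP90, by 0.52 (0.08 to 0.96, limma adjusted p = 0.101). Dnaja1, a J-domain partner of Hspa8, was higher. It read 4937 and 4384 in WT bulge, 7697 and 6813 in WT hair germ, 5106 and 3085 in Runx1 iTG bulge, and 8576 and 6190.2 in Runx1 iTG hair germ. Every hair germ array lay above the bulge arrays (0.76, SE 0.19, limma adjusted p = 0.0234), and all 3 of its probe sets passed. This call was lost without any of the 4 WT arrays, Runx1 iTG bulge replicate 2 or Runx1 iTG hair germ replicate 1. Over all genes 9.17% passed higher and 9.11% lower. Of the 12 heat-inducible members, 3 passed higher (Hspd1, Hspe1 and Dnaja1), 2 lower (Hspb1 and Hspb8) and 7 did not pass. The heat shock elements printed above thus belong to members that were higher (Hspe1), lower (Hspb1) and not called (Hspa1a).

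Of the 7 ER members, 1 passed higher and 0 lower (14.3%, against 18.3% of all genes), with a median of 0.21. Hspa5 read 4832 and 4210.4 in WT bulge, 6871 and 8967 in WT hair germ, 5314 and 4011 in Runx1 iTG bulge, and 9953 and 5761 in Runx1 iTG hair germ. The hair germ arrays lay above the bulge arrays (0.76, SE 0.21, limma adjusted p = 0.0291). All 3 of its probe sets ran in this direction, and 1 of them passed. The call was lost without WT bulge replicate 1, WT bulge replicate 2, WT hair germ replicate 2, Runx1 iTG bulge replicate 2 or Runx1 iTG hair germ replicate 1. It was also lost with quantile normalization, with the mean of all probe sets of a gene and without the intensity trend. Dnajb11 was at 0.43 (95% interval −0.07 to 0.93) and Hsp90b1 at 0.36 (−0.03 to 0.75). Dnajc3, Dnajc10, Dnajb9 and Hspa13 lay between 0.06 and 0.21, and each lay below 0 under 1 or more alternatives. The lowest value was −0.55 for Dnajc3, with the probe set of highest linear mean, and those of Dnajb9, Dnajc10 and Hspa13 were −0.10, −0.03 and −0.03, each with an array left out. Of 25 other genes of the unfolded protein response, 4 passed higher and 0 lower, against 9.17% and 9.11% of all genes. The 4 were Canx (1.07), Asns (1.17), Derl1 (0.96) and Herpud1 (0.78).

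In the constitutive or other class 5 passed higher and 2 lower of 53 (13.2%, against 18.3% of all genes). Beside Hspa9, Dnaja3 and Dnajc15, these were Dnajc2, Dnajc9, Hspa2 and Hspa12a. Dnajc2, a ribosome-bound J-domain protein, read 1296 and 1269 in WT bulge, 2059 and 2318 in WT hair germ, 1748 and 1120.2 in Runx1 iTG bulge, and 2453 and 2701 in Runx1 iTG hair germ. Its populations did not overlap (0.82, SE 0.18, limma adjusted p = 0.0109), but 1 of its 4 probe sets passed, and it did not pass once WT hair germ replicate 2 was left out.

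Dnajc9, a J-domain protein that also chaperones histones, read 2159.7 and 1469 in WT bulge, 3178 and 3978 in WT hair germ, 2705 and 1564 in Runx1 iTG bulge, and 3015 and 2956 in Runx1 iTG hair germ. The hair germ arrays lay above the bulge arrays (0.77, SE 0.21, limma adjusted p = 0.0326). The call was lost without WT bulge replicate 2, either WT hair germ array, Runx1 iTG bulge replicate 2 or either Runx1 iTG hair germ array. Hspa12a, given above, was lower in hair germ (−1.17, SE 0.33, limma adjusted p = 0.0366), a call lost without any 1 of the 8 arrays, and 2 of its 4 probe sets ran the other way. Hspa4 was at 0.57 (limma adjusted p = 0.0613) and Dnajb6 at 0.00. Hspa8 was at −0.05 (95% interval −0.39 to 0.28), although its dimmest probe set lay at 1.23.

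Among WT samples 2 further members passed. Dnajc6 (auxilin, which uncoats clathrin vesicles) read 55.3 and 7.21 in WT bulge, 416 and 230.3 in WT hair germ, 52.7 and 69.3 in Runx1 iTG bulge, and 32.3 and 87.3 in Runx1 iTG hair germ. WT hair germ stood above the other 3 groups. The WT bulge mean lay below background, so the difference within WT is at least 9.94-fold, the hair germ mean over the background of 31.1 (limma adjusted p = 0.0379). Hspa12b was lower in WT hair germ (−2.75, limma adjusted p = 0.0259). The difference between genotypes did not pass as an interaction for Dnajc6 (unadjusted p = 0.0127, limma adjusted p = 1.00, with the WT bulge mean below background) or for Hspa12b. The Dnajc6 call was lost without WT bulge replicate 2, either WT hair germ array, either Runx1 iTG bulge array or Runx1 iTG hair germ replicate 2, and that of Hspa12b without any of the 4 WT arrays.

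Genes of other cell types moved with the populations. All 5 sebaceous markers measured were higher in hair germ samples (Scd1, Mgst1, Cidea, Pparg and Far2), with sums of 34147 to 55387 against 3965 to 10448 in bulge. In WT bulge the means of Cidea (15.4) and Pparg (5.40) lay below background. These markers moved with the mitochondrial chaperones, and their part in those results was not tested. In the direction of Hspb1, Hspb8 and Hspa2, 3 of 6 fibroblast markers passed higher in bulge (Col1a1, Col1a2 and Col3a1, list sums of 4834 to 9162 against 250 to 700). So did 3 of 6 smooth muscle markers (674 to 2840 against 272 to 487) and 2 of 7 melanocyte markers (2089 to 4498 against 428 to 1085). Over all genes 9.11% passed in that direction. Of the same lists, 1 fibroblast, 2 smooth muscle and 1 melanocyte marker had an averaged difference above 0, higher in hair germ, and did not pass. All 6 suprabasal epidermal markers were also higher in bulge (49041 to 74602 against 21676 to 39338). Of 6 immune markers, Lyz2 was lower in hair germ, and 0 of 11 skeletal muscle, 0 of 5 endothelial and 0 of 4 nerve and Schwann cell markers passed by limma, with 0 of each at an unadjusted p under 0.05. The part of the fibroblast, smooth muscle, melanocyte and suprabasal markers in the lower chaperones was not tested. Of 19 immediate early genes, 9 passed higher and 2 lower in hair germ, against 9.17% and 9.11% of all genes. Egr3 was at 2.80 and Egr2 at 2.52. Ier2, an immediate early gene that is also in the list of HSF regulators, was the 1 gene of 7 in that list to pass (1.23, limma adjusted p = 0.00413).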

How the data were processed

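Affymetrix intensities for 45101 probe sets were used as deposited by the authors on a linear scale; the program behind them was not given in the sources used here. Per the labels' protocols, 5 ng of total RNA was amplified and biotin-labelled. Each array's mean without its top and bottom 2% was 500.0. Here, 64 control probe sets were removed, the 75th percentile was made equal on all arrays, a floor of 2.42 was set (3.48% of values lay under it), and values were put on the log2 scale. Probe sets with 1 gene symbol (34945) were kept, and the one with the highest mean over 8 arrays stood for its gene. A mean per group was fitted with limma 3.58.1 in R 4.3.3 (intensity trend, 7 contrasts, Benjamini-Hochberg over 18193 genes) and tested on simulated data. The number of arrays limits precision: the median SE of a group difference was 0.515. P-values measure the spread among samples labelled as biological replicates.

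The members, classes, lists, markers, tests and alternatives were chosen with earlier results of these data known. Named were a preset list of 26 classical members, members past the threshold, and up to 5 per direction and contrast with non-overlapping groups and the smallest p. Of each list, up to 4 genes were named by p, except that cell type and stress lists also name the genes behind a count. Alternatives were other scalings, an offset of 16, other probe set choices, a filter on dim genes, other variance models and sample sets, the replicate block and leaving out each array. Annotation matches by Entrez identifier covered 34741 probe sets.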

Additional observations from a re-analysis of the deposited data

How the results depend on the processing

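The number of members passing for hair germ against bulge depended most on the variance model and the arrays used. Without the intensity trend, 0 passed in WT, 4 in Runx1 iTG and 8 in the average, against 9, 7 and 13. With only the groups compared 4 passed in WT, and with day 20 arrays only 4 passed in WT and 1 in Runx1 iTG. Leaving out each array in turn gave 0 to 8 in WT, 5 to 9 in Runx1 iTG and 7 to 13 in the average. In the transgene comparisons and the interaction, 0 passed under every alternative run.

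In the average, Hspd1, Hspe1, Hspa9, Dnaja3, Hspb1, Hspb8 and Hspa2 passed under all 18 alternatives. Of the others, Hspa12a lost its call in 12, Dnajc9 in 9, Dnaja1 and Hspa5 in 8, and Dnajc15 and Dnajc2 in 4. No called member changed sign. Scaling to a common median moved the all-gene median of this contrast from −0.09 to 0.20, and 13 members passed higher and 3 lower, against 9 and 4; in WT it gave 5 and 2, against 5 and 4. The replicate block, which here also separates the sex-linked signal, gave 9, 8 and 14 members. Replicate differences correlated between groups at −0.05 to 0.15, not above 0.1 in every pair, and the labels do not pair the samples. The array number limits what could be detected.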

Other observations

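Replicate 1 and replicate 2 differed in the same direction in all 4 groups for several heat-inducible members, a pattern noticed after the values were seen. Replicate 1 was higher in every group for 4 of 12 heat-inducible members (33.3%), Hspa1a, Hspa1b, Dnajb1 and Dnaja1, and for 5.43% of all genes. The array may not separate Hspa1a from Hspa1b, so these may not be independent readings. For Dnaja1, another probe set broke the order in WT hair germ, with 1628 in replicate 1 and 1779 in replicate 2. Of the constitutive or other members 2 of 53 did so (3.77%), and of the ER members 0 of 7. The opposite order, replicate 2 higher in every group, held for 0 of 12 heat-inducible members, 1 of 7 ER members, 9 of 53 constitutive or other members (17.0%) and 7.12% of all genes. No test was made. For Hspa1a the replicate 1 reading exceeded that of replicate 2 by 0.70 log2 units in WT bulge, 1.12 in WT hair germ, 0.86 in Runx1 iTG bulge and 0.46 in Runx1 iTG hair germ. For Dnajb1 the excess was 0.38, 0.38, 0.17 and 0.09 in the same order. Replicate number coincides with sex-linked signal in every group, and these cannot be told apart. Both replicates of the WT groups were taken on day 20, so age in days did not differ within them; in the transgenic groups it did.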
